A study of Schizosaccharomyces pombe with 24 samples.

Results

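Loss of Gcn5 was examined in fission yeast cells that already lacked Elp3. The 2 arrays labelled as Δgcn5 Δelp3 were set against the 3 arrays labelled as Δelp3, which together are 5 of the 24 arrays of the series, and every probe set other than the array's own controls was used. The Δgcn5 Δelp3 strain was h+, with Δgcn5::KanMX4 and Δelp3::KanMX6 in a leu1-32 ura4-D18 ade6-M210 background. The Δelp3 strain was also h+ and carried Δelp3::KanMX6, leu1-32 and ura4-D18, and its ade6 allele was not fully resolved in the strain list. Thus both strains lacked elp3, were mutant at leu1, ura4 and ade6 and carried a kanamycin resistance cassette, and, apart from the unresolved ade6 allele, gcn5 was the listed difference between them. The series is a microarray survey of histone acetyltransferase (HAT) mutants of Schizosaccharomyces pombe, in which total RNA from asynchronous cultures, labelled as grown at 30 °C, was hybridised to Affymetrix Yeast Genome 2.0 arrays. All 5 arrays belong to the second of 2 experiment dates. The replicates were independent isolates of 1 strain for each genotype.

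Gcn5 is the acetyltransferase of SAGA, a coactivator complex that is brought to promoters by sequence-specific factors and that acetylates the tail of histone H3. Elp3 is the catalytic subunit of Elongator, which was first described with elongating RNA polymerase II and which is also needed to modify wobble uridines in tRNA. Both enzymes belong to the same family of N-acetyltransferases. In fission yeast Gcn5 is known for roles in stress adaptation and in keeping genes for mating and meiosis low during growth.

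Levels are given as log2 units, as the authors' RMA normalization left them, so that a difference of 1 unit is a doubling. The 5 arrays are alike in overall level, since the medians of all arrays in the series lay between 10.99 and 11.08. The 2 arrays of Δgcn5 Δelp3 correlated at 0.997 with a pooled within-group standard deviation of 0.099, and the 3 arrays of Δelp3 correlated at 0.986 to 0.993 with a standard deviation of 0.205. Outside these 5 arrays, the library labelled Δgcn5 replicate 2 goes against its label, with gcn5 at 10.93 and mst2 at 5.21, and the library labelled Δmst2 replicate 2 was doubted as well, so results that use either are also given without both.

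The deleted genes behaved as the labels say. For gcn5, the arrays read 5.24 and 5.15 in Δgcn5 Δelp3 and 11.08, 10.96 and 10.99 in Δelp3, a log2 fold change of -5.82 ± 0.09 (SE; limma adjusted p = 3.26e-09). The elp3 transcript was low in both strains, at 5.95 and 5.93 in Δgcn5 Δelp3 and at 6.71, 6.98 and 6.60 in Δelp3, against 11.47 to 12.02 in wild type. This small difference passed the test (-0.83 ± 0.17, adjusted p = 0.0238) although the gene is deleted in both strains. The other acetyltransferase genes mst1, mst2, hat1 and rtt109 lay within -0.14 and 0.10 of Δelp3 and did not pass.

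The marker genes of the strains were close in both. The ura4 transcript was low in both, at 7.45 and 7.32 in Δgcn5 Δelp3 and at 8.04, 8.04 and 7.69 in Δelp3, and the difference of -0.54 ± 0.13 passed at an adjusted p of 0.0402. The his3 transcript was high in both, with a difference of -0.35 ± 0.08 (adjusted p = 0.0427), and leu1 and ade6 did not pass. None of 8 measured M-cell-specific genes passed the test, beside 6.32% of all features. Of these, mfm2, which encodes an M-factor pheromone precursor, lay at 5.82 and 5.58 in Δgcn5 Δelp3 and at 6.13, 6.19 and 6.36 in Δelp3.

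Adding gcn5 loss changed a small part of the transcriptome, in both directions. Of 4981 features (each the probe set of a gene, or a probe set without a gene name), 56 were higher and 68 lower in Δgcn5 Δelp3 by at least 1.7-fold at an adjusted p below 0.05, which are 1.12% and 1.37% of all features. Past 1.7 log2 units, 12 rose and 16 fell. Without a fold threshold 128 rose (2.57%) and 187 fell (3.75%). Of the 124 features called at 1.7-fold (2.49% of all), 43 had a gene name, 21 of them higher and 22 lower with gcn5 itself among the lower ones. The arrays of both strains did not overlap at any of the 124, and they did not overlap at 43.5% of all features either. The signal was low at some of these: the Δelp3 mean was under 7 at 16 of the 56 higher features, and the Δgcn5 Δelp3 mean was under 7 at 13 of the 68 lower ones. No detection calls were used here, so it is not known which low values are above background, and a change measured against one is uncertain in size. The count depends on each Δgcn5 Δelp3 array, since 23 rose and 41 fell without replicate 2, and 26 rose and 42 fell without replicate 1. In a fit of all 24 arrays, 22 rose and 22 fell.

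**Figure D1:**
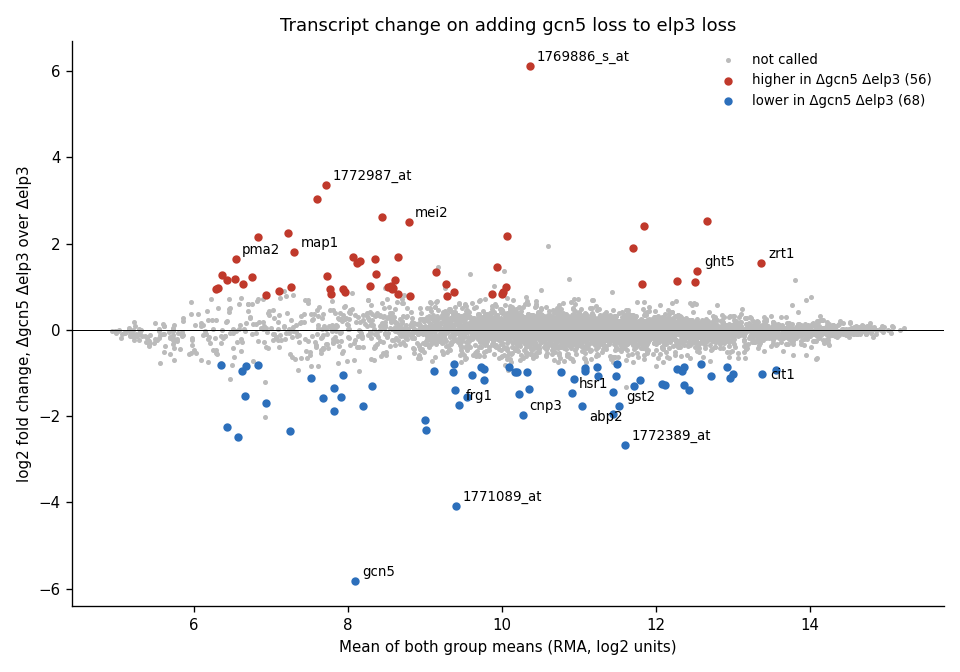
Log2 fold change of Δgcn5 Δelp3 over Δelp3 (vertical axis) against the mean of both group means (horizontal axis, RMA log2 units) for 4981 features. Red points are the 56 called higher, blue points the 68 called lower and grey points the rest. The gcn5 transcript lies lowest at -5.82, and the largest rise belongs to a probe set without a gene name at 6.11.

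Among named genes, the steepest rises included regulators and structural proteins of mating and meiosis. The gene mei2, whose RNA-binding product switches cells from mitosis to meiosis, lay at 10.11 and 9.98 in Δgcn5 Δelp3 and at 7.53, 7.49 and 7.61 in Δelp3. Its arrays were tightly grouped in both strains, and the rise was 2.50 ± 0.44 (adjusted p = 0.0135), or 5.67-fold. Among the other arrays of the same fit, which share in its error, the Δmst2 Δelp3 arrays spread widely, at 7.50, 8.86 and 9.41. In the fit of all 24 arrays the adjusted p of mei2 was 0.309, and it was 0.000526 in the fit without both doubted libraries. Wild type, on the first date, read 9.60, 9.98 and 9.86 for mei2, so its level in Δgcn5 Δelp3 was near that of wild type.

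The transcription factor gene map1, which acts in P-type cells, followed mei2 with 8.13 and 8.30 in Δgcn5 Δelp3 and 6.65, 6.36 and 6.17 in Δelp3. Its rise of 1.82 ± 0.39 had an adjusted p of 0.0275, and it passed under 8 of the 15 alternatives. Its value was 0.147 in the fit of all 24 arrays. Rising by 1.68 ± 0.19 (adjusted p = 0.00152), spn6, a septin of sporulating cells, had 8.94 and 8.88 in Δgcn5 Δelp3 and 7.60, 7.06 and 7.02 in Δelp3. These 3 genes were the largest rises with a name, and all Δgcn5 Δelp3 values were above all Δelp3 values. Wild type, on the other date, read 7.32, 8.11 and 7.23 for map1 and 6.06, 6.01 and 6.45 for spn6. These lay below Δgcn5 Δelp3 in both genes, but for map1 the 8.11 of wild type was almost level with 8.13.

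Most of the mating and meiosis genes did not move with them. Of 20 genes for pheromone signalling and entry into meiosis, 2 rose and 1 fell, or 15.0% beside 6.32% of all features. The median change was 0.11 beside 0.00 over all features. Besides mei2, ste7 rose by 0.69 ± 0.16 (adjusted p = 0.0418) and gap1, the GTPase-activating protein of Ras, fell by 0.65 ± 0.10 (adjusted p = 0.00794). The gene ste11, for the factor that starts sexual differentiation, had a change of 1.18 that did not pass (adjusted p = 0.168). Of 5 P-cell-specific genes only map1 passed, or 20.0% beside 6.32% of all features. Of the M-cell genes mfm2 and mfm1 had changes of -0.53 and -0.46 that did not pass.

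Of 22 genes for meiotic recombination and the chromosome axis, 2 rose and none fell, namely mug20 by 0.60 ± 0.13 and rec6, needed for meiotic double-strand breaks, by 0.52 ± 0.12. Of this list 9.09% passed beside 6.32% of all features, and the list median was 0.04. The adjusted p values of mug20 and rec6 were 0.0261 and 0.0334. Neither passed without the doubted libraries (adjusted p = 0.423 for mug20 and 0.0914 for rec6) nor in the fit of all 24 arrays (0.642 and 0.137). Of 30 measured genes of middle meiosis and sporulation 10.0% passed, beside 6.32% of all features, and the median was 0.07. There were 3 rises and no fall. They were mcp3, a meiotic coiled-coil protein gene, with 8.38 and 8.31 in Δgcn5 Δelp3 and 7.78, 6.71 and 6.82 in Δelp3, num1, a dynein anchor of meiotic nuclear movement, which rose by 0.73 ± 0.12, and meu14, a forespore membrane gene, which rose by 0.61 ± 0.12. Replicate 1 of Δelp3 stood above the others for mcp3, whose rise of 1.24 ± 0.29 had an adjusted p of 0.0413. Among 14 genes of cell and nuclear fusion only myo51, a type V myosin gene, passed, with a rise of 0.51 ± 0.09. That is 7.14% of the list beside 6.32% of all features. Of 7 septin genes spn6 was the only one to pass, or 14.3% beside 6.32% of all features.

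The mug genes, named for their induction in meiosis, went both ways. Of 91 measured, 5 rose and 2 fell, so that 7.69% passed beside 6.32% of all features, and the list median was 0.08. The highest was mug147, with 9.42 and 9.59 in Δgcn5 Δelp3 and 8.30, 7.80 and 7.37 in Δelp3, a rise of 1.68 ± 0.23 (adjusted p = 0.00371). Rises of 1.60 ± 0.17 for mug125, 0.99 ± 0.17 for mug146 and 0.84 ± 0.11 for mug73 also passed, and mug15 fell by 1.59 ± 0.24 (adjusted p = 0.00662). In mug15 the levels were 6.97 and 6.80 in Δgcn5 Δelp3 and 8.57, 8.66 and 8.17 in Δelp3, with no overlap. Outside the lists rdh54, a translocase of the Swi2/Snf2 family that acts with recombinases, lay at 9.79 and 9.84 in Δgcn5 Δelp3 and at 8.87, 8.64 and 8.74 in Δelp3 and rose by 1.06 ± 0.11 (adjusted p = 0.000887).

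The wtf genes, a family of poison-antidote meiotic drivers on chromosome III, rose where they passed. Of 16 measured, 4 rose and none fell, which is 25.0% of them beside 6.32% of all features, and the median was 0.18. The largest change was in wtf20, which lay at 7.34 and 7.39 in Δgcn5 Δelp3 and at 6.40, 6.04 and 6.0 in Δelp3 and rose by 1.22 ± 0.14 (adjusted p = 0.00168). The others were wtf9 at 0.87 ± 0.15, wtf22 at 0.60 ± 0.13 and wtf5 at 0.46 ± 0.10. Members of this family are close in sequence, so a probe set of one may bind transcripts of others. Without both doubted libraries 2 of the 16 passed, beside 135 of all 4981 features. In the fit of all 24 arrays none did, beside 55 of all features.

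**Figure D2:**
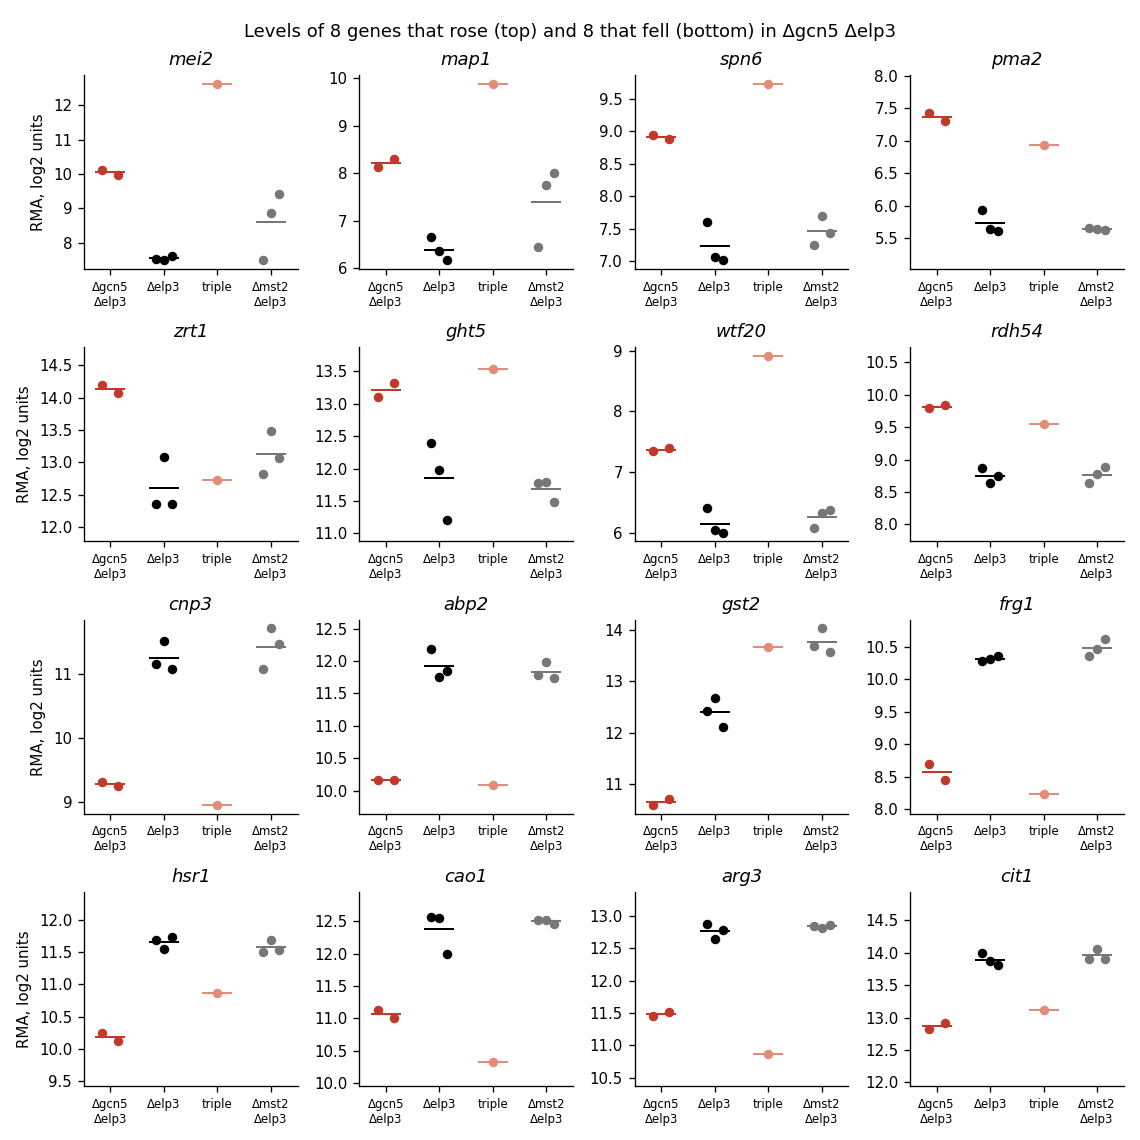
Levels (RMA, log2 units) of 16 genes in each array, with a line at the group mean, for Δgcn5 Δelp3 (red), Δelp3 (black), the triple mutant (1 array, light red) and Δmst2 Δelp3 (grey); each vertical axis has its own range. Red points lie above black ones in the upper 8 panels and below them in the lower 8, while zrt1 and gst2 differ little between the triple mutant and Δmst2 Δelp3.

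Of 30 genes for hexose transport and alternative carbon use, 5 rose and 1 fell, or 20.0% of the list beside 6.32% of all features, although the median was 0.06. The main hexose transporter gene ght5 had 13.11 and 13.32 in Δgcn5 Δelp3 and 12.39, 11.98 and 11.21 in Δelp3, so that the Δelp3 arrays spread widely and still lay below. Its rise was 1.36 ± 0.29 (adjusted p = 0.0266). Wild type, on the other date, read 13.59, 14.13 and 14.53, above both Δgcn5 Δelp3 values. The related gene ght3 had 7.14 and 7.21 in Δgcn5 Δelp3 and low values of 6.32, 5.86 and 6.14 in Δelp3, and rose by 1.07 ± 0.13 (adjusted p = 0.00256). Smaller rises were those of ght1 (0.94 ± 0.15), ght4 (0.65 ± 0.13) and adh4, an alcohol dehydrogenase gene (0.59 ± 0.12), and gal1, for galactokinase, fell by 0.57 ± 0.14 (adjusted p = 0.0456). The count shrank to 1 rise and no fall both in the fit without the doubted libraries and in that of all 24 arrays. The count over all 4981 features shrank too, from 315 to 135 and 55.

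The zinc transporter gene zrt1 lay at 14.20 and 14.08 in Δgcn5 Δelp3 and at 12.36, 13.08 and 12.36 in Δelp3, a rise of 1.54 ± 0.25 (adjusted p = 0.00879). Its partner list of 11 copper and zinc genes had 1 rise and 1 fall, or 18.2% beside 6.32% of all features. The fall was that of ctr5, a subunit of the high-affinity copper transporter. It had 12.50 and 12.49 in Δgcn5 Δelp3 and 13.26, 13.32 and 13.46 in Δelp3, a change of -0.85 ± 0.10 (adjusted p = 0.00183). The P-type proton ATPase gene pma2 read 7.43 and 7.30 in Δgcn5 Δelp3 and was low in Δelp3, at 5.93, 5.64 and 5.61. Its rise was 1.63 ± 0.11 (adjusted p = 9.51e-05). It was the only one of 18 cation and salt genes that passed, or 5.56% beside 6.32% of all features. Among 13 iron uptake genes, str3 and str2, of the siderophore-iron transporter family, rose by 0.94 ± 0.13 and 0.55 ± 0.11. They were 15.4% of the list beside 6.32% of all features, and the list median was -0.01. Neither passed without the doubted libraries (adjusted p = 0.617 for str3 and 0.0566 for str2) nor in the fit of all 24 arrays (0.822 and 0.368).

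Genes of stress defence were split. The glutathione S-transferase gene gst2 had 10.58 and 10.70 in Δgcn5 Δelp3 and 12.43, 12.68 and 12.11 in Δelp3, and fell by 1.77 ± 0.18 (adjusted p = 0.000942), or 3.40-fold. A zinc finger factor of the peroxide response, hsr1, lay at 10.25 and 10.12 in Δgcn5 Δelp3 and at 11.68, 11.55 and 11.73 in Δelp3 and fell by 1.47 ± 0.10 (adjusted p = 9.51e-05). Both falls were far larger than the spread within either strain. Of 24 peroxide and glutathione genes, obr1 fell with gst2, by 0.67 ± 0.12, and hmt1, a vacuolar transporter of metal chelates, rose by 0.40 ± 0.09. In the core environmental stress list of 26 genes the pyridoxal reductase gene plr1 fell by 1.02 ± 0.16 and obr1 fell with it, whereas tms1, for a predicted hexitol dehydrogenase, rose by 0.99 ± 0.18. In the peroxide list 12.5% passed and in the stress list 11.5%, beside 6.32% of all features, with medians of -0.02 and -0.01. None of 19 heat shock and chaperone genes passed: hsp9 lay at 14.42 and 14.37 in Δgcn5 Δelp3 and at 14.03, 14.06 and 11.59 in Δelp3, where replicate 3 stood far below the others.

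Of 22 genes for the nitrogen response and amino acid transport, 3 fell and none rose, or 13.6% beside 6.32% of all features, and the median was -0.20. They were cat1, a cationic amino acid transporter, with 12.01 and 11.86 in Δgcn5 Δelp3 and 12.83, 12.81 and 12.79 in Δelp3, then car1, for arginase, and gdh1, for the NADP-dependent glutamate dehydrogenase. Their changes were -0.87 ± 0.12, -0.86 ± 0.15 and -0.59 ± 0.09, with adjusted p values of 0.00374, 0.0136 and 0.00678. All 3 also fell in the fit without the doubted libraries, where alr2 was a further member to rise. In the fit of all 24 arrays gdh1 passed, but cat1 and car1 did not (adjusted p = 0.0866 and 0.0601).

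Outside that list, arg3, for ornithine carbamoyltransferase of arginine synthesis, lay at 11.46 and 11.51 in Δgcn5 Δelp3 and at 12.87, 12.64 and 12.79 in Δelp3. Its change of -1.28 ± 0.09 (adjusted p = 0.000125) passed under all 15 alternatives. The next gene on chromosome I, arg11, fell by 0.39 (adjusted p = 0.0495). Also on that chromosome, the citrate synthase gene cit1 lay at 12.82 and 12.91 in Δgcn5 Δelp3 and at 13.81, 13.88 and 14 in Δelp3, a change of -1.03 ± 0.10 (adjusted p = 0.00062). In these genes the arrays of each strain lay close together and the strains were well apart.

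The glutathione transporter gene pgt1 had 10.69 and 10.76 in Δgcn5 Δelp3 and 12.32, 12.00 and 12.18 in Δelp3, a change of -1.44 ± 0.13 (adjusted p = 0.00062). The copper amine oxidase gene cao1 had 11.12 and 11.01 in Δgcn5 Δelp3 and 12.57, 12.55 and 12.00 in Δelp3, a change of -1.30 ± 0.16 (adjusted p = 0.00256). Other falls were those of mfc1, a copper transporter of the major facilitator family (-1.35 ± 0.14), dea2, for adenine deaminase (-1.17 ± 0.11), and liz1, for the pantothenate transporter (-1.07 ± 0.12). The gene frg1 lay at 8.69 and 8.45 in Δgcn5 Δelp3 and at 10.29, 10.31 and 10.36 in Δelp3, and its change of -1.75 ± 0.11 had an adjusted p of 6.41e-05, the lowest of the named falls after gcn5.

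The largest named fall after gcn5 was in cnp3, which encodes CENP-C, a protein of the inner kinetochore. It lay at 9.32 and 9.25 in Δgcn5 Δelp3 and at 11.17, 11.52 and 11.09 in Δelp3, a change of -1.98 ± 0.19 (adjusted p = 0.000677), or 3.94-fold. Wild type, on the other date, read 10.24, 10.22 and 8.68, a range that holds both Δgcn5 Δelp3 values. The neighbouring gene abp2, for a protein that binds replication origins, had 10.16 and 10.16 in Δgcn5 Δelp3 and 12.19, 11.75 and 11.84 in Δelp3, and fell by 1.77 ± 0.14 (adjusted p = 0.000229). In RefSeq gene order no protein-coding gene lies between these 2 genes on chromosome II, and their systematic names place them on opposite strands. On its other side abp2 is followed by naa35, which rose by 0.45. Both cnp3 and abp2 had no overlap between strains and passed under 14 of 15 alternatives, the exception being the fit of all 24 arrays, with adjusted p of 0.0821 for cnp3 and 0.144 for abp2. Of 42 genes for microtubules and the kinetochore, cnp3 was the only one to fall and alp1, for a tubulin folding cofactor, was the only one to rise, by 0.69 ± 0.09 (adjusted p = 0.00353). Of this list 4.76% passed beside 6.32% of all features, and the list median was 0.01.

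**Figure D3:**
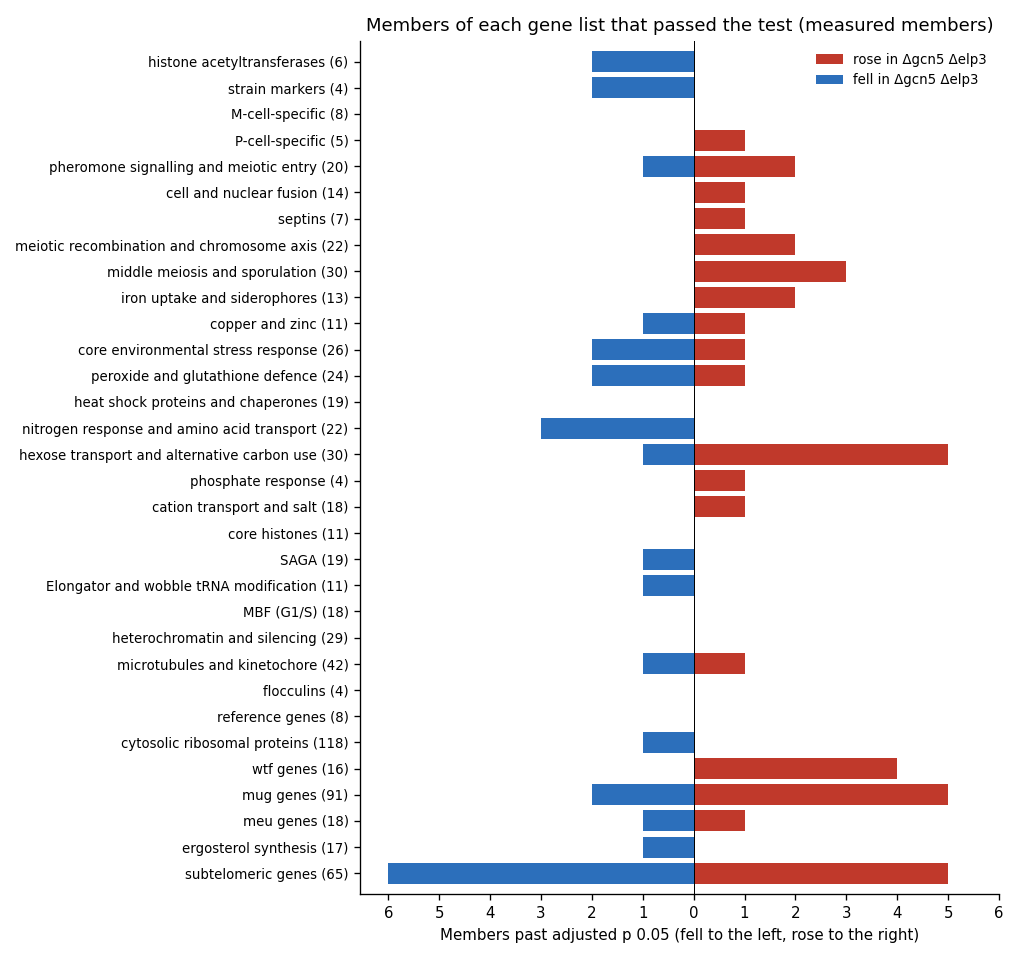
Number of measured members of each gene list (list size in parentheses) past an adjusted p of 0.05, with members that rose in Δgcn5 Δelp3 drawn to the right in red and members that fell to the left in blue. The pheromone signalling, meiotic recombination, middle meiosis and hexose transport lists hold more rises than falls, and the nitrogen list holds 3 falls alone. The M-cell, histone, heterochromatin, MBF and heat shock lists hold neither. Of all features 6.32% passed.

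None of 11 core histone genes passed, nor any of 18 genes for the G1/S factor MBF, its regulators and its targets. Of all features 6.32% passed, a share at which lists this small hold few calls or none. Their medians were 0.08 and -0.02. None of 29 heterochromatin and silencing genes passed either, with a median of 0.11. Among them dcr1, for Dicer, had a change of 0.71 ± 0.19 with an adjusted p of 0.0669. Of 19 SAGA genes only gcn5 itself passed (5.26%), and of 11 Elongator and wobble uridine genes only elp3 (9.09%). Of 118 cytosolic ribosomal protein genes 1 passed, or 0.847%, below the share of all features. It was rpl1603, with a change of -0.45 ± 0.10, and the list median was -0.03. Like mug20, rec6, str3 and str2, the genes ste7, meu14, hmt1 and rpl1603 passed neither without the doubted libraries nor in the fit of all 24 arrays. The same holds for mug15, grt1, ght1, ght3, ght4, adh4, gal1, wtf5 and wtf22, and for elp3, ura4 and his3. Of 8 reference genes none passed in the main comparison.

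Of 65 named genes near chromosome ends, 5 rose and 6 fell, or 16.9% beside 6.32% of all features, with a median of -0.01: grt1, ght3, str3, ght4 and adh4 rose, and pgt1, dea2, cat1, mfs2, ppr8 and gal1 fell. Of these, ght3 and str3 are 2 protein-coding genes apart on chromosome I. Some are counted above as well: ght3, ght4, adh4 and gal1 in the hexose list, str3 in the iron list and cat1 in the nitrogen list. Without the doubted libraries 1 gene near chromosome ends rose and 5 fell, and in the fit of all 24 arrays 1 rose and 1 fell. Over all features those fits had 61 rises and 74 falls, and 25 rises and 30 falls.

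Features without a gene name held the most extreme values. The probe set 1769886_s_at lay at 13.78 and 13.07 in Δgcn5 Δelp3 and at 7.25, 8.18 and 6.51 in Δelp3, a rise of 6.11 ± 0.49 (adjusted p = 0.000246), and no other group among wild type, Δgcn5, Δmst2 Δelp3 and the triple mutant exceeded 9.89. The ending of its name marks a probe set whose probes match several transcripts. The probe set 1771089_at lay at 7.72 and 7.01 in Δgcn5 Δelp3 and at 11.50, 11.59 and 11.24 in Δelp3, a change of -4.08 ± 0.24 (adjusted p = 4.93e-05). In Δmst2 Δelp3, which also lacks elp3 but keeps gcn5, it lay at 6.05, 5.98 and 6.63, so its level was not high in all strains without elp3. Also without a name, 1772987_at had a change of 3.36 ± 0.17, and 1772389_at a change of -2.66 ± 0.32.

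The same genetic step, loss of gcn5 where elp3 is already lost, can be read on arrays whose levels do not enter the fold changes above. Both comparisons come from the same fit and share its error, to which the Δmst2 Δelp3 arrays contribute. Calls made in both are therefore not independent. The triple mutant Δgcn5 Δelp3 Δmst2 (1 array; h+, leu1-32, ura4-D18, ade6-M210, mst2::URA4+) was set against Δmst2 Δelp3 (3 arrays; h+, leu1-32, ura4-D18, ade6-M216, Δmst2::URA4+), all on the second date. The lone array has no spread of its own and was assumed to vary like the other groups, so the counts below describe that array and have no replicate check. This strain was described as very slow-growing, which cannot be told apart from gcn5 loss here. On this array 287 features were higher and 249 lower at the same thresholds, or 5.76% and 5.0% of all features. Of the 56 features called higher in Δgcn5 Δelp3, 46 had the same sign and 35 were also called higher, which is 62.5% of the 56 and 12.2% of the 287. Of the 68 called lower, 58 had the same sign and 42 were also called lower, which is 61.8% of the 68 and 16.9% of the 249. All 22 named genes that fell had the same sign, beside 53.3% of all features, with gcn5 among them by construction of the strains. Of the 21 named genes that rose, 18 had the same sign, beside 46.7% of all features. Of the features without a name 2 that rose and 5 that fell were called the other way, among them 1772987_at, with -3.34 ± 0.21 in the triple mutant.

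**Figure D4:**
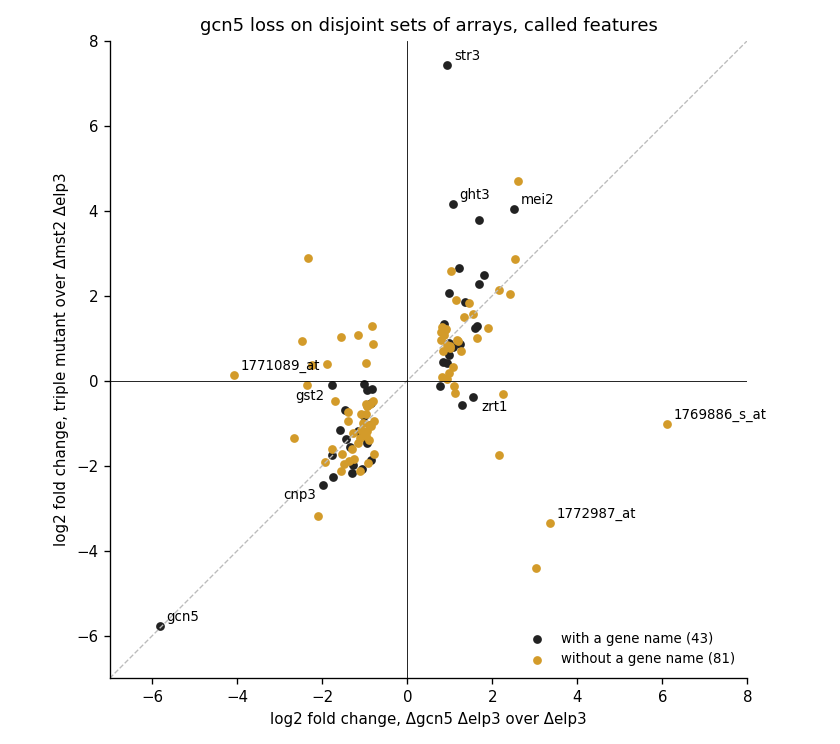
Log2 fold change of the triple mutant over Δmst2 Δelp3 (vertical) against that of Δgcn5 Δelp3 over Δelp3 (horizontal) for the 124 called features, black for the 43 with a gene name and ochre for the 81 without; the dashed line marks equal change. Most points have the same sign on both axes, and the points of opposite sign farthest from the line have no gene name.

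Single genes show where the 2 backgrounds were alike and where they were not. The cnp3 transcript lay at 8.96 in the triple mutant and at 11.08, 11.72 and 11.47 in Δmst2 Δelp3, a change of -2.46, and the change of abp2 was -1.75. The arginine gene arg3 lay at 10.87 in the triple mutant and at 12.85, 12.82 and 12.86 in Δmst2 Δelp3. For mei2 the triple mutant read 12.63, above 7.50, 8.86 and 9.41 in Δmst2 Δelp3. The opposite holds for gst2, which lay at 13.67 in the triple mutant and at 13.69, 14.04 and 13.57 in Δmst2 Δelp3, with a change of -0.10, and for plr1, with -0.08. The change was -0.39 for zrt1, 0.86 for mcp3 and -0.56 for grt1, a predicted zinc cluster factor gene near a chromosome end. The iron transporter family gene str3 read 13.07 in the triple mutant and 5.72, 5.64 and 5.55 in Δmst2 Δelp3, while in Δgcn5 Δelp3 it reached 6.57 and 6.96. Likewise the M-factor gene mfm2, low in Δgcn5 Δelp3, read 12.60 in the triple mutant although that strain is listed as h+. The P-cell gene map1 was high there too, at 9.89, beside 6.45, 7.75 and 8.00 in Δmst2 Δelp3. The median change in the triple mutant was 0.67 over the M-cell list and 0.97 over the P-cell list. The mating type of that array was not settled, and any part it has in the counts was not tested. These differences between the backgrounds were not tested either.

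Adding gcn5 loss and adding mst2 loss to Δelp3 gave different profiles. Set directly against each other, 105 features were higher and 109 lower in Δgcn5 Δelp3 than in Δmst2 Δelp3, or 2.11% and 2.19%, with mst2, ura4 and gcn5 among them by construction of the strains. Since this uses the same Δgcn5 Δelp3 arrays, its calls are no second measurement of the falls and rises above. The Δmst2 Δelp3 arrays do show what the other HAT deletion gave at the same genes: pma2 lay at 5.65, 5.64 and 5.63, frg1 at 10.36, 10.47 and 10.62, hsr1 at 11.50, 11.68 and 11.53 and cit1 at 13.91, 14.06 and 13.91. At these 4 genes Δgcn5 Δelp3 stood apart from Δmst2 Δelp3, with differences of 1.73 ± 0.11, -1.91 ± 0.11, -1.38 ± 0.10 and -1.09 ± 0.10 and adjusted p values of 4.36e-05, 2.04e-05, 8.77e-05 and 0.00023. By contrast mei2 and map1 did not pass in this comparison, where their differences were 1.46 ± 0.44 (adjusted p = 0.0619) and 0.81 ± 0.39 (adjusted p = 0.204). Their levels ranged from 7.50 to 9.41 and from 6.45 to 8.00 among the Δmst2 Δelp3 arrays.

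Whether gcn5 loss acts differently with and without elp3 was tested as an interaction, by subtracting the change of Δgcn5 over wild type from that of Δgcn5 Δelp3 over Δelp3. The Δgcn5 strain was h-, leu1-32 and ura4-D18 with his3-D1 and an unresolved ade6 allele, and it was measured on the first date. With its array comparison the paper names an h+ wild type with can1-1, leu1-32, ade6-M216 and ura4-D18. Its strain list also holds an h- wild type without can1-1. Against the h+ strain, his3, can1 and mating type differ along with gcn5, and the interaction cannot be told apart from these. Over all 24 arrays 10 features had a more positive change without elp3 and 7 a more negative one, or 0.201% and 0.141%, of which 3 had a gene name. At an unadjusted p below 0.05 and 1.7-fold there were 34 and 49. Without the doubted libraries the counts were 23 and 32, of which 24 had a gene name. Wild-type replicate 2 also stood apart. It read 12.85 for ura4, where replicates 1 and 3 had 7.40 and 7.45, and 8.73 for mst2, where they had 9.89 and 10.13, although the listed wild-type strains carry ura4-D18.

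The 3 named genes passed in both fits and in that of all arrays but wild-type replicate 2. The zinc transporter gene zrt1, 14.20 and 14.08 in Δgcn5 Δelp3 and 12.36 to 13.08 in Δelp3, was level where elp3 was present, at 13.98, 13.87 and 13.62 in Δgcn5 and 13.72 to 14.06 in wild type. Its interaction was 1.65 ± 0.26 (adjusted p = 0.00313). In the other direction cit1, which fell without elp3, lay at 13.74, 13.99 and 13.94 in Δgcn5 and at 13.91, 14.05 and 14.16 in wild type, with an interaction of -0.88 ± 0.16 (adjusted p = 0.0137). With wild-type replicate 2 left out as well as the doubted libraries, cit1 no longer passed (-0.83, adjusted p = 0.0506), while zrt1 and gap1 did. For gap1 the levels were 10.98, 10.96 and 11.04 in Δgcn5 and 10.94, 10.66 and 10.77 in wild type, and the interaction was -0.86 ± 0.15 (adjusted p = 0.00663). In the Δgcn5 Δelp3 strain zrt1 was thus near its wild-type level, whereas cit1 and gap1 were below theirs, with the caveat that wild type was on the other date.

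Over all 24 arrays no other named gene was called. The pma2 transcript lay at 7.27 and 7.15 in the Δgcn5 arrays other than replicate 2 and at 5.45, 5.40 and 5.66 in wild type, and its interaction without the doubted libraries was -0.08 ± 0.26 (adjusted p = 0.958). For mei2 that value was -1.15 (adjusted p = 0.535), for arg3 -0.69 (adjusted p = 0.227) and for cnp3 -0.63 (adjusted p = 0.843). These do not show that the changes were equal. Other genes described above were called without the doubted libraries only. These were spn6 (-1.28, adjusted p = 0.0421), obr1 (1.72, adjusted p = 0.000118), adh4 (1.21, adjusted p = 0.0342), ght3, mfm1, mfm2 and his3, of which his3 carries an allele of its own in the Δgcn5 strain. With wild-type replicate 2 left out as well, spn6 (-1.20, adjusted p = 0.106) and adh4 (1.24, adjusted p = 0.0602) no longer passed, while the others did. The hexose transporter gene ght3 lay at 7.14 and 7.21 in Δgcn5 Δelp3, at 10.44 and 12.70 in those Δgcn5 arrays and at 5.47 to 6.30 in wild type, with an interaction of -4.58 ± 0.58 (adjusted p = 0.000198). The M-cell genes mfm1 and mfm2 were high in these h- Δgcn5 arrays, at 10.26 and 11.21 for mfm1, and low in the h+ strains Δgcn5 Δelp3 and Δelp3, so that mating type and gcn5 cannot be told apart for them.

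**Figure D5:**
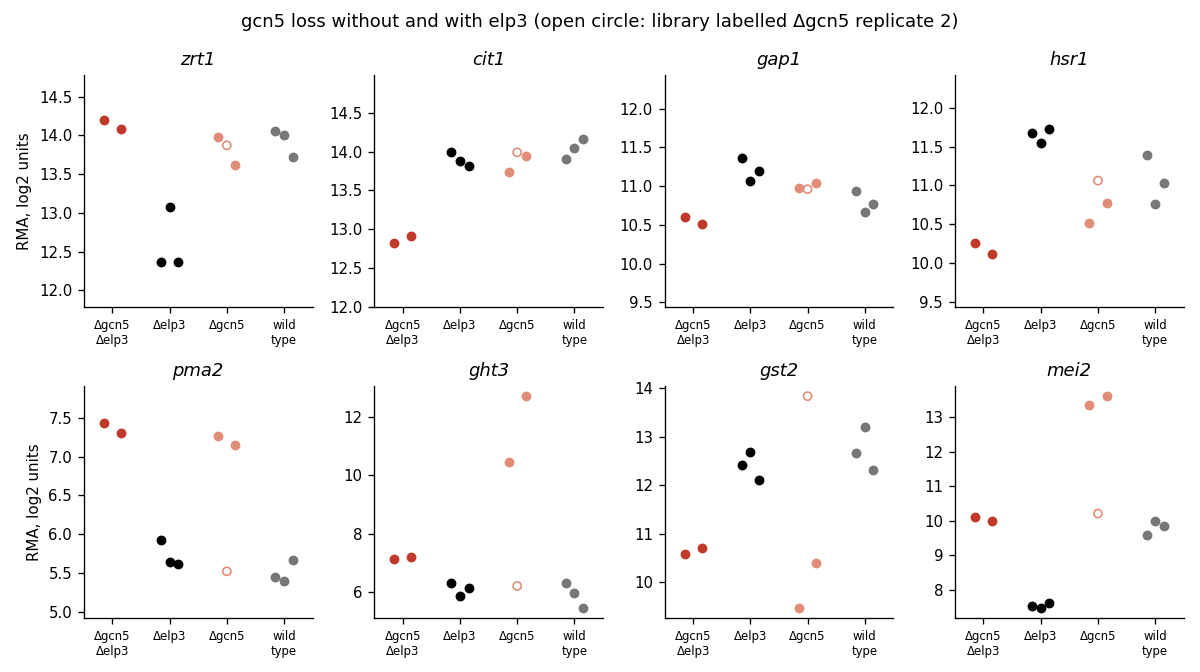
Levels (RMA, log2 units) of 8 genes in each array of Δgcn5 Δelp3, Δelp3, Δgcn5 and wild type; the open circle is the library labelled Δgcn5 replicate 2, and each vertical axis has its own range. For zrt1, cit1 and gap1 Δgcn5 and wild type lie close together while Δgcn5 Δelp3 and Δelp3 are apart, and for pma2 both strains lacking gcn5 lie higher apart from the open circle.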

How the data were processed

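Total RNA of each culture was hybridised to 1 Affymetrix Yeast Genome 2.0 array. For each probe set the authors deposited a log2 intensity from RMA (background correction, quantile normalization and summary), and it was used without change. The submitters' processing notes name RMA and limma, each with its version not given in the sources used here. Arrays hold no counts, so their number limits the precision.

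Of 5028 probe sets, 29 controls were dropped, as were 18 that duplicate a gene whose other probe set had the higher mean. Of the 4981 features tested, 2899 had a gene name, through the platform annotation (2917 probe sets with 1 symbol, 20 with several and 2062 with none) and RefSeq ASM294v3, which held 2914 of the gene identifiers and updated 113 symbols. No genome sequence was used here.

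limma 3.58.1 in R 4.3.3 fitted a mean per group to the 10 arrays of the second experiment date (5 residual and 3.67 prior degrees of freedom), and to all 24 for the interaction, with two-sided tests and Benjamini-Hochberg adjustment over all features. The second-date fit also holds 1 array of Δgcn5 Δmst2. A call required an adjusted p below 0.05 and 1.7-fold (0.77 log2), with 3.25-fold (1.70) as a second threshold. The script was tested on simulated data. Named genes are the HAT and marker genes, the 15 largest rises and 15 largest falls among called genes whose arrays do not overlap, and of each of 32 lists up to 6 members that passed, or up to 2 with the largest change where none did. Genes and unnamed probe sets outside that rule (ste11, arg11, naa35, alr2 and the 4 probe sets) were chosen after their values were seen. Genes near chromosome ends are, in RefSeq order, the outermost 60 coding for protein at both ends of chromosomes I and II. The comparison and the lists were chosen with earlier results of these data known.

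The methods state independent isolates of each strain as replicates, and p-values measure only the spread between them. The methods give growth temperatures and an RNA amount other than the labels do. Alternatives covered the arrays in the fit, normalization, dim features, the variance model, array weights, the replicate block, thresholds and each array left out.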

Additional observations from a re-analysis of the deposited data

Results flagged for a closer look

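By limma's interaction term over all 24 arrays, 10 features had a more positive change without elp3 and 7 a more negative one. Flagged here are the 5 of them that the report describes by gene name or probe set. The interaction was 1.65 for zrt1, -0.88 for cit1 and -0.86 for gap1, all of which are described in the report. It was 8.21 for the probe set 1769886_s_at (adjusted p = 3.03e-05), which read 13.78 and 13.07 in Δgcn5 Δelp3, 7.25, 8.18 and 6.51 in Δelp3, 7.75, 6.47 and 6.08 in Δgcn5 and 7.52, 9.89 and 9.20 in wild type. For 1772987_at it was 7.45 (adjusted p = 1.08e-05), with 9.21 and 9.57 in Δgcn5 Δelp3, 5.91, 6.06 and 6.13 in Δelp3, 5.95, 6.13 and 6.67 in Δgcn5 and 11.33, 8.77 and 10.92 in wild type. Both probe sets had no gene name in the annotation used, and in the triple mutant both were lower than in Δmst2 Δelp3 by point estimate on its 1 array, at -1.02 and -3.34. With single arrays left out, between 1 and 6 named genes had an interaction, with 1 when Δgcn5 Δelp3 replicate 2 was left out and 6 when Δgcn5 replicate 2 was. Without both doubted libraries there were 24, and 21 when wild-type replicate 2 was left out as well.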

How the results depend on the processing

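No feature called in Δgcn5 Δelp3 against Δelp3 changed its direction under any of the 15 alternatives, but many lost the call. In the fit of all 24 arrays 22 features rose and 22 fell, and 42 of the 124 calls were shared. With 22 arrays 92 were shared, and with only the 5 arrays compared 115. By threshold, 37 rose and 44 fell at 2-fold, 12 and 16 past 1.7 log2 units and 128 and 187 with no fold threshold. Leaving out 1 array gave 23 to 68 rises and 41 to 94 falls, with the lowest counts without either Δgcn5 Δelp3 array. The interaction gave 23 more positive and 32 more negative changes on 22 arrays, 20 and 27 when wild-type replicate 2 was left out as well, and 7 to 10 and 4 to 9 when 1 array was. Against Δmst2 Δelp3, 55 rose and 43 fell on all 24 arrays, and 68 to 130 rose and 67 to 127 fell with 1 array left out. The triple mutant had 148 rises and 128 falls on all 24 arrays, and 245 to 287 and 241 to 269 with 1 Δmst2 Δelp3 array left out. Of list members 32 rose and 23 fell, against 5 and 5 on all 24 arrays, 18 and 15 on 22 arrays, 55 and 59 with array weights, and 8 to 35 and 7 to 27 with 1 array left out. The counts over all 4981 features at the same adjusted p moved too. There 128 rose and 187 fell, against 25 and 30 on all 24 arrays, 61 and 74 on 22 arrays, and 307 and 464 with array weights. Of 65 named genes that passed, 18 passed on all 24 arrays, 43 on 22 arrays and 28 to 56 with 1 array left out.

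The replicate numbers did not show a pairing: over the 2 numbers that both strains share, deviations correlated at -0.10 and -0.17. With the replicate block 45 features rose and 72 fell, 18 list members rose, 104 of the 124 calls were shared and 45 of the 65 named genes passed. Without a fold threshold 64 of all features rose with that block. With 1 Δgcn5 Δelp3 array left out, the lone array was assumed to vary like the other groups. The spread of that strain is known only from the difference between its 2 arrays, and arrays hold no counts, so signal over background limits what can be seen in dim features.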
